A study of Mus musculus with 6 samples.

Results

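miR-153 is a microRNA (miRNA), a short RNA that pairs with messenger RNAs and lowers their translation or stability. The table of read counts named its rows by mature miRNA, and the rows were chosen by the names of both mature products of the hairpin, mmu-miR-153-3p and mmu-miR-153-5p (mmu stands for mouse and is left out from here on). Of the 2 names, 1 had a row, miR-153-3p, so the account concerns 1 of 1077 mature miRNAs. miR-153-5p, from the other arm of the hairpin, was not analysed here.

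Reads of small RNA were counted in 6 libraries of mouse pancreas, all of tissue with pancreatitis. The 3 libraries labelled HTG came from mice with blood triglycerides above normal, and the 3 control libraries from mice without this condition, so pancreatitis was common to both groups. Strain, age, the way in which either condition was induced and the time after onset are not stated in the labels. Whether a group's libraries stand for different mice is not stated either, and p-values therefore measure a spread between libraries that may be technical. RNA came from whole tissue, where fewer cells of a type and less of a miRNA per cell cannot be told apart.

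miR-153 is known as a miRNA of neurons and of hormone-secreting cells. Its hairpin is cut from an intron of Ptprn2, the gene of phogrin, a membrane protein of the dense-core granules in which endocrine cells and neurons store hormones and transmitters. In neurons it is known to repress the messenger RNAs of alpha-synuclein and of the amyloid precursor protein, and in cultured mouse beta cells it has been linked to insulin secretion. It has also been studied in pancreatitis under high blood triglycerides together with SREBP1c, a transcription factor that switches on genes of lipid synthesis. The comparison of HTG with control libraries asks whether miR-153 differs in inflamed pancreas when blood triglycerides are raised.

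On the mouse genome build GRCm38 the 69-base hairpin Mir153 lies on the + strand at chr12:117250817-117250885. By GENCODE M21 gene models it sits inside intron 19 of the 22 introns of the protein-coding transcript Ptprn2-201, 2116 bases after the preceding exon and 2717 bases before the next one. The intron is on the same strand as the hairpin, and the noncoding gene Gm5441 overlaps it on the opposite strand. The nearest other annotated miRNA gene before it on the chromosome, Gm23190, is 1008 kb away, and the annotation has none after it, so Mir153 belongs to no cluster by distance. The hairpin and both arms are given here to show what miR-153-3p is and how it lies against the other arm; the annotation that the submitters counted with is not given in the sources. The sequences are those of RefSeq on GRCm38.p6. In the hairpin the capitals mark both mature arms, and in each mature arm they mark the seed, bases 2 to 8, which selects targets.
Mir153 hairpin: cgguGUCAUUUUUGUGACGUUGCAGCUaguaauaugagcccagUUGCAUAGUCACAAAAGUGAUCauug
miR-153-3p: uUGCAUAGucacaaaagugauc
miR-153-5p: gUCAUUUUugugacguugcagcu

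miR-153-3p spans 22 bases, at chr12:117250860-117250881, and miR-153-5p 23 bases, at chr12:117250821-117250843. In the predicted minimum free energy fold of the hairpin (-30.8 kcal/mol), 19 of the 22 bases of miR-153-3p pair with bases of miR-153-5p. Of 1679 mature mouse miRNAs in the RefSeq table, 0 others had the seed of miR-153-3p, and 0 others had that of miR-153-5p. Bases 2 to 7 of miR-153-3p were shared by 2 others, miR-448-3p and miR-6335, neither of them analysed here. miR-448-3p, encoded on chromosome X, is shown with the stretch of 7 leading bases that it shares with miR-153-3p in capitals.
miR-448-3p: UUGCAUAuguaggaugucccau

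The remainder of the molecule differs widely. No other mature mouse sequence came closer to miR-153-3p than 9 edits (single-base changes, insertions or deletions), and its first 18 bases were at least 5 edits from any stretch of another one. No other row of the table held the same 6 counts. The sequence comparison covers the 901 rows of the count table with a sequence in the RefSeq table, while 176 rows without one were not compared.

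miR-153-3p was detected in all 6 libraries, with 236, 606 and 397 reads in HTG libraries 1, 2 and 3, and 247, 264 and 563 reads in control libraries 1, 2 and 3. The totals behind these reads were 6514498, 18384606 and 10279395 counts in HTG and 8994031, 8920079 and 19773579 counts in control libraries. The counting error alone, the square root of the count, was between 4.06% and 6.51% of the count. By number of reads miR-153-3p ranked between 188 and 217 in HTG libraries and between 215 and 229 in control libraries, where 728 to 835 and 739 to 804 miRNAs were detected. Its mean level over the 6 libraries was 32.5 CPM (counts scaled to library size, here with the TMM factors described below). That was rank 210 of the 488 miRNAs with enough reads to be tested. It was a miRNA of middling abundance in this tissue, far from the floor. A library with 0 reads would still have allowed 0.152 to 0.461 CPM (3 counts, scaled by library size alone). This floor covers counting error only, as PCR copies are not independent molecules.

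Levels were set on a common scale with TMM factors (trimmed mean of M-values, which corrects for a few abundant miRNAs taking different shares of the reads). On this scale miR-153-3p stood at 30.5, 37.3 and 42.7 CPM in HTG libraries 1, 2 and 3, and at 28.1, 30.4 and 25.7 CPM in control libraries 1, 2 and 3. Each HTG library was above each control library, but HTG 1 exceeded control 2 by only 0.0261 CPM. The 95% counting interval of HTG 1, from 26.7 to 34.6 CPM, spanned the values of both control 1 and control 2. HTG 3, from 38.6 to 47.1 CPM, lay above the intervals of all 3 control libraries, which together ran from 23.6 to 34.3 CPM. The interval of HTG 2, from 34.4 to 40.4 CPM, lay only just above them. These intervals cover counting error only.

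The group means were 36.8 ± 6.12 CPM in HTG and 28.1 ± 2.36 CPM in control libraries (SD, n = 3 each), a ratio of 1.31. In edgeR's quasi-likelihood test, fitted to all 488 miRNAs, the log2 fold change was 0.39 ± 0.19 (SE), with an unadjusted p of 0.0791 and a Benjamini-Hochberg adjusted p of 0.996. miR-153-3p thus did not pass the threshold of 0.05. The 95% interval of the fold change ran from 0.960 to 1.80, so these libraries leave room for no difference and for a level up to 1.80-fold higher. An exact two-sided permutation test of the 6 levels gave p = 0.1, the smallest that 3 against 3 libraries allow.

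**Figure D1:**
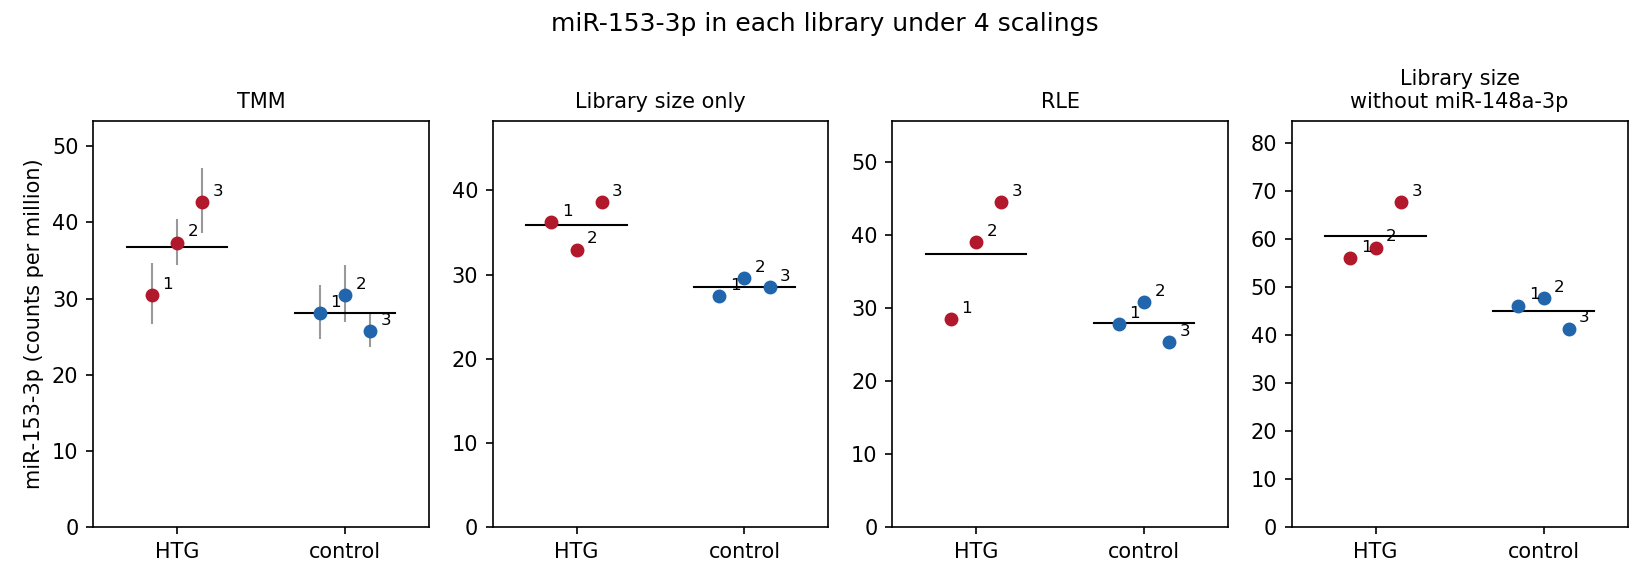
miR-153-3p in CPM (counts scaled to library size) in each of the 3 HTG (high blood triglycerides) and 3 control libraries, numbered as labelled, under 4 ways of scaling; lines are group means, and grey bars in the TMM panel are 95% counting intervals. HTG 1 lies at 30.5 CPM against 30.4 CPM in control 2 with TMM, and below control 2 with RLE scaling.

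Among all 488 tested miRNAs edgeR called 0 (0.0%) at an adjusted p under 0.05, and 12 (2.46%) had an unadjusted p under 0.05. DESeq2 also called 0, with 19 miRNAs at an unadjusted p under 0.05. The replicate block, a term for the library number, raised the unadjusted count in edgeR to 27 and left the adjusted count at 0. Without control 1 there were 2 adjusted calls, without both libraries numbered 1 there were 4, and miR-153-3p was among neither. miR-153-3p held rank 29 by unadjusted p, and 49 of the 488 had a larger positive fold change. Groups that did not overlap, with HTG higher, were seen for 21 miRNAs (4.3%), of which miR-153-3p was 1. The spread of miR-153-3p between libraries of a group was small. The SD of its log2 CPM within groups was 0.19, against a median of 0.34 over all tested miRNAs, and 90 of the 488 had a smaller one. Of the 87 tested miRNAs within 2-fold of its level, miR-153-3p itself included, 12 had a smaller spread.

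The order of the libraries depended on the scaling, while the higher mean in HTG did not. Scaled by library size alone, miR-153-3p was at 36.2, 33.0 and 38.6 CPM in HTG libraries 1, 2 and 3, and at 27.5, 29.6 and 28.5 CPM in control libraries 1, 2 and 3. On that scale the groups were separated by a wider gap and the ratio of means was 1.26. With the relative log expression (RLE) factors of edgeR the levels were 28.4, 39.0 and 44.5 CPM in HTG libraries, against 27.8, 30.7 and 25.3 CPM in control libraries. There the groups overlapped, since HTG 1 lay below control 2, and the exact permutation p was 0.2. With miR-148a-3p, the dominant acinar miRNA, left out of the library totals, HTG libraries held 56.1, 58.3 and 67.8 CPM and control libraries 46.2, 47.8 and 41.4 CPM. This last scale, added after the data were seen, again separated the groups, with a ratio of 1.35.

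Across the TMM, library size and RLE scales HTG 1 was the library whose level moved most, and it was also the one with the largest TMM factor, 1.19, against 0.883 and 0.905 in HTG 2 and 3 and 0.978, 0.972 and 1.11 in control 1, 2 and 3. It had the fewest counts as well. Without HTG 1 the log2 fold change of miR-153-3p was 0.55 ± 0.17 (SE; adjusted p = 0.514 in edgeR). Without both libraries numbered 1, which deviated together from their group means (r = 0.47 across the 488 miRNAs, which are not independent replicates), it was 0.60 ± 0.19 (SE; adjusted p = 0.238). HTG 3 contributed most to the difference. Without it the value was 0.27 ± 0.23 (SE; adjusted p = 0.997). Set against the control library of the same number, the log2 difference was 0.12 for libraries 1, 0.29 for libraries 2 and 0.73 for libraries 3.

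**Figure D2:**
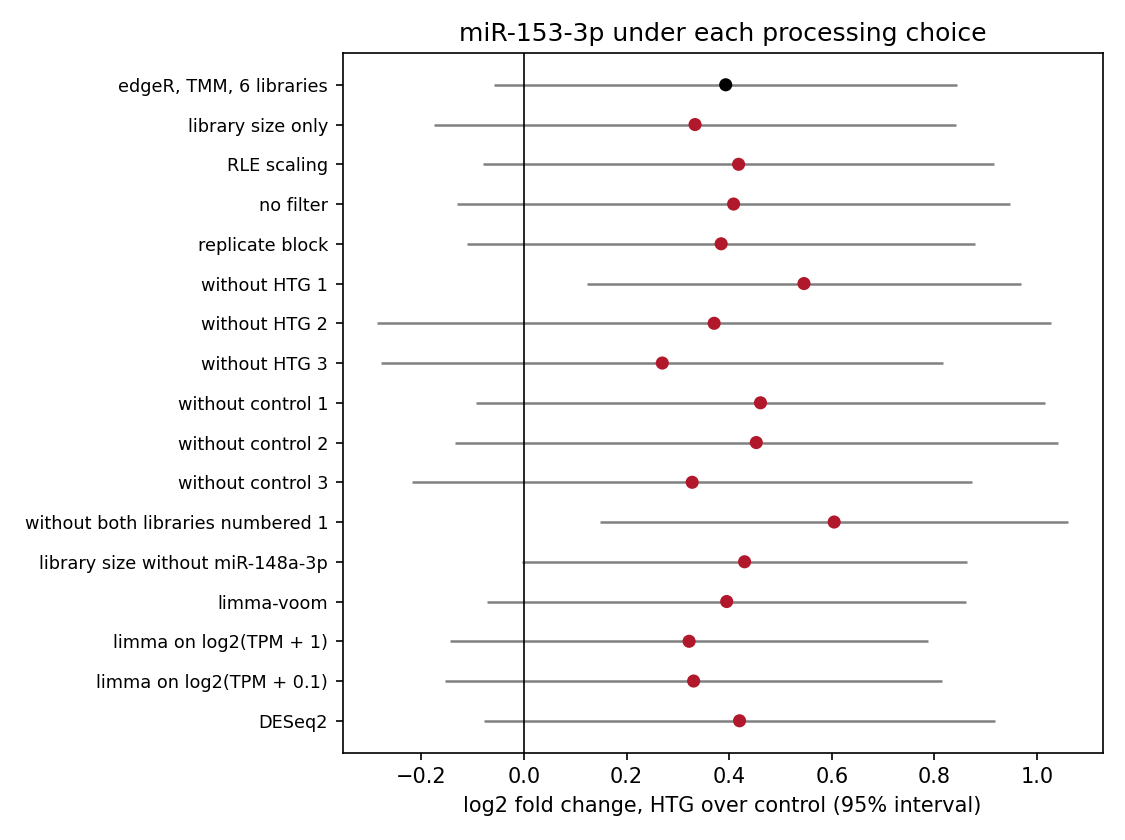
Log2 fold change of miR-153-3p, HTG over control, with 95% intervals, for the edgeR fit of all 6 libraries (black) and 16 alternatives (red). Every estimate lies above 0, between 0.27 and 0.60, and the intervals of the fits without HTG 1 and without both libraries numbered 1 are the 2 that exclude 0.

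miR-153 was next set beside other miRNAs of endocrine cells and neurons, in a list of 18 names that holds both miR-153 arms. The list was put together with earlier results of these data known, so its direction is no independent evidence. Of the 17 tested, 13 had a fold change above 0 and 4 below it, with a median log2 fold change of 0.39 that was the value of miR-153-3p itself. Without miR-153-3p the median was 0.41 over 16 miRNAs, while over all 488 tested it was -0.0076. None of the 17 passed the threshold in edgeR (0.0% of all tested passed), and 5 had an unadjusted p under 0.05, against 2.46% of all tested. The groups did not overlap for 7 of the 17, 6 of them higher in HTG, against 7.99% of all tested in either direction. The median was 0.71 without control 1, where 2 members passed, against 2 of all 505 tested, and 0.11 without control 3. Without both libraries numbered 1 it was 0.60 and 3 members passed, miR-7a-5p, miR-7b-5p and miR-129-5p, against 4 of all 509 tested. For each of these 3, control 1 was the control library nearest to the HTG levels.

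The estimates of the members ranged from -0.68 to 1.04 on the log2 scale, and differences between members were not tested. The pair miR-7a-5p and miR-7b-5p, both endocrine miRNAs that share a seed, had log2 fold changes of 0.82 ± 0.27 and 0.85 ± 0.32 (SE). miR-7b-5p stood at 944, 981 and 900.1 CPM in HTG libraries 1, 2 and 3, and at 823, 379 and 369 CPM in control libraries 1, 2 and 3. Its lowest HTG library was close to control 1 and far from the other controls. For miR-153-3p, in contrast, control 1 lay between the other 2 controls on the TMM scale, while by library size alone it was the lowest control. The brain-enriched miR-129-5p had 45.3 ± 4.42 CPM in HTG and 25.2 ± 15.4 CPM in control libraries (SD, n = 3 each), and a log2 fold change of 0.85 ± 0.40 (SE). Its passenger arms, miR-129-1-3p and miR-129-2-3p, had 0.88 ± 0.28 and 0.63 ± 0.37 (SE).

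miR-384-5p and miR-384-3p, from both arms of another neuronal and endocrine hairpin, had log2 fold changes of 0.86 ± 0.31 and 1.04 ± 0.54 (SE). miR-384-5p was at 11.1, 11.1 and 9.89 CPM in HTG libraries 1, 2 and 3, and at 7.39, 3.92 and 6.30 CPM in control libraries 1, 2 and 3, with no overlap between the groups. The neuronal miR-124-3p was at 2.25 ± 0.776 CPM in HTG and 1.45 ± 1.19 CPM in control libraries (SD, n = 3 each), too few reads for a narrow estimate (0.69 ± 0.78, SE). miR-375-3p, the most abundant islet miRNA of the list, had similar means in the groups, 38758 ± 5791 CPM in HTG and 37342 ± 3343 CPM in control libraries (SD, n = 3 each; log2 0.05 ± 0.16, SE; 95% interval -0.31 to 0.42). In a cluster of sensory and endocrine cells, miR-96-5p had a value of 0.20 ± 0.22, miR-182-5p one of 0.04 ± 0.27 and miR-183-5p one of -0.06 ± 0.23 (SE). Those of miR-204-5p and miR-184-3p were 0.07 ± 0.49 and -0.32 ± 0.29 (SE).

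On the lower side stood both arms of the neural miR-9 hairpins, with a log2 fold change of -0.52 ± 0.29 for miR-9-5p and -0.68 ± 0.25 for miR-9-3p (SE). miR-9-3p was at 18.3, 14.7 and 13.0 CPM in HTG libraries 1, 2 and 3, against 30.8, 19.6 and 23.4 CPM in control libraries 1, 2 and 3. The groups did not overlap, in the direction opposite to that of miR-153-3p.

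**Figure D3:**
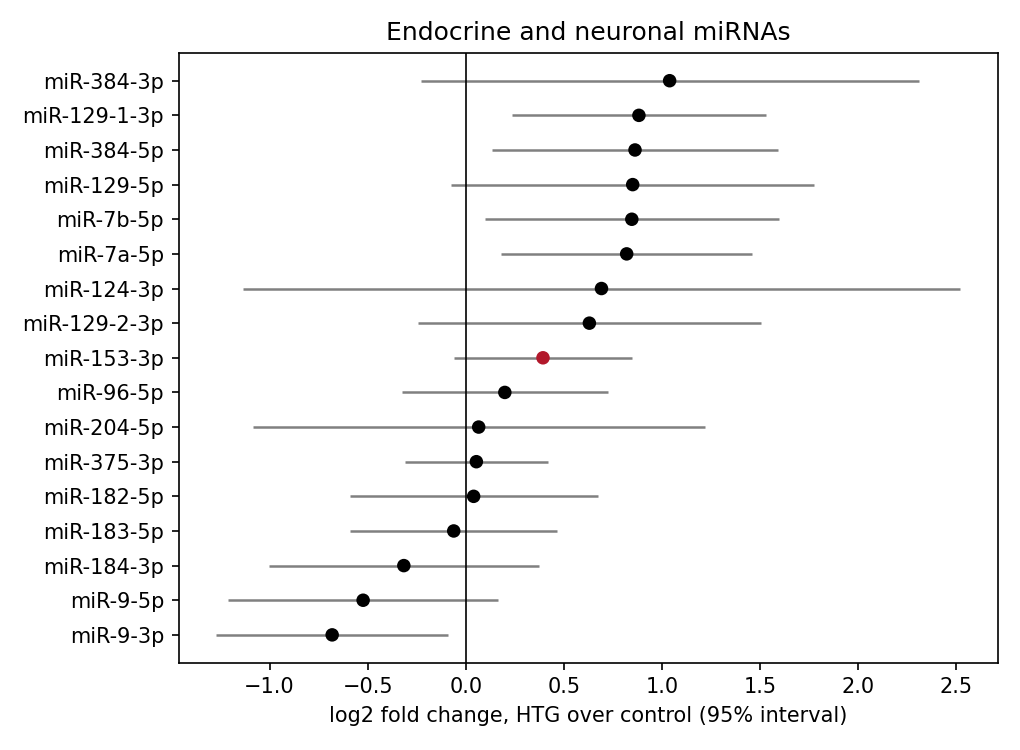
Log2 fold change, HTG over control, of the 17 tested miRNAs of the endocrine and neuronal list with 95% intervals, ordered by size; miR-153-3p is in red. Values run from 1.04 for miR-384-3p to -0.68 for miR-9-3p, and miR-153-3p is the median, at 0.39.

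A ratio of reads within a library needs no scaling between libraries. For each 1000 reads of miR-375-3p, HTG libraries 1, 2 and 3 held 0.944, 0.860 and 1.05 reads of miR-153-3p, and control libraries 1, 2 and 3 held 0.725, 0.908 and 0.647. The groups overlapped, because control 2 lay above HTG 2. On the log2 scale the mean ratio was 0.34 higher in HTG (exact two-sided permutation p = 0.2), a difference not separable from the spread between libraries. Against the summed reads of the endocrine and neuronal list without miR-153-3p the log2 difference was 0.27 (exact permutation p = 0.2). Most of those reads were of miR-375-3p, so this ratio is not independent of the one to miR-375-3p.

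Against miR-7a-5p the direction was the opposite. HTG libraries 1, 2 and 3 held 6.27, 6.68 and 8.08 reads of miR-153-3p for each 1000 reads of miR-7a-5p, and control libraries 1, 2 and 3 held 6.42, 13.0 and 11.7. The log2 difference was -0.51 (exact two-sided permutation p = 0.3). Control 1 fell among the HTG libraries. Each of the 3 HTG libraries was below the control library of the same number, with an exact sign-flip permutation p of 0.25 over the pairs, the smallest that 3 pairs allow. Against miR-375-3p 1 of the 3 pairs was lower in HTG (exact sign-flip permutation p = 0.5). Neither direction passed a test, and a ratio shows only unequal change of its 2 miRNAs.

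**Figure D4:**
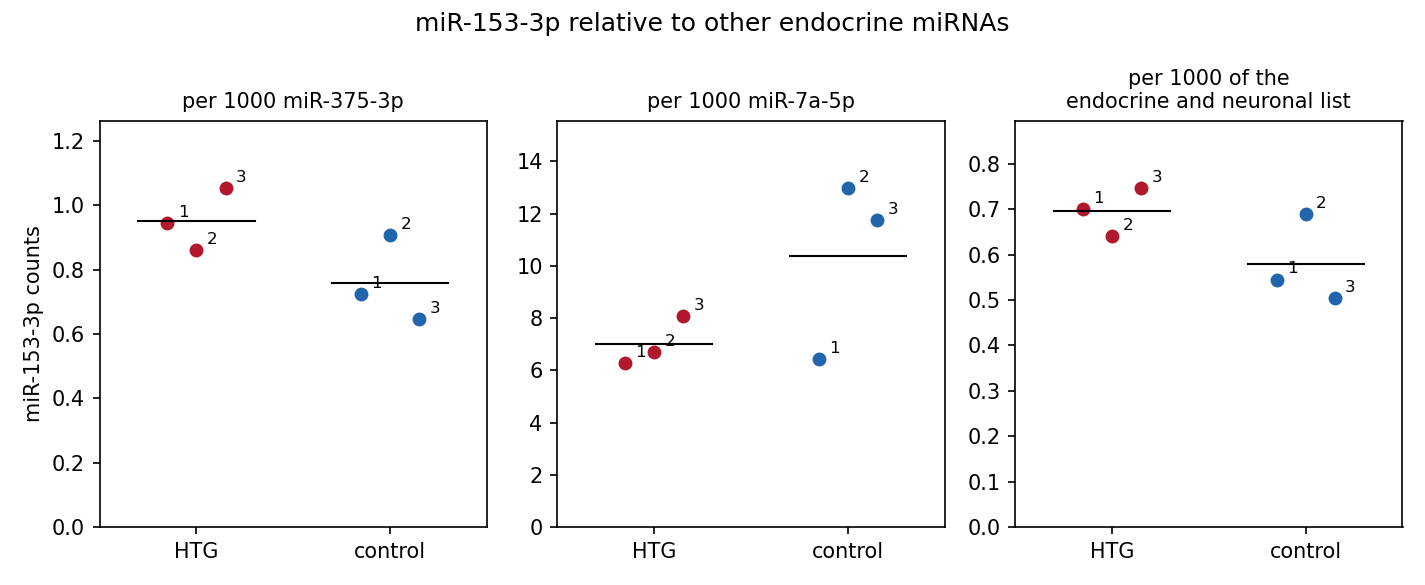
Reads of miR-153-3p for each 1000 reads of miR-375-3p, of miR-7a-5p and of the rest of the endocrine and neuronal list, in the 3 HTG and 3 control libraries numbered as labelled; lines are group means. The means are higher in HTG for miR-375-3p (0.952 against 0.760) and for the list (0.695 against 0.580), and lower for miR-7a-5p (7.01 against 10.4).

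Marker miRNAs of the cell types in the tissue were summed per library to show what moved beside miR-153-3p. All 5 islet markers had reads, and their sum was 38217 to 50136 CPM in HTG and 36408 to 44104 CPM in control libraries. miR-375-3p made up most of this sum. Of the other islet markers, miR-7a-5p and miR-7b-5p had groups that did not overlap, higher in HTG, against 4.3% of all tested in that direction. The groups overlapped for miR-184-3p (log2 fold change -0.32) and miR-204-5p (0.07). The sum of 8 neuronal markers was 551 to 680 CPM in HTG and 547 to 932 CPM in control libraries. Its members went both ways. The log2 fold change was -0.52 for miR-9-5p and -0.68 for miR-9-3p, but 0.85 for miR-129-5p and 0.69 for miR-124-3p. That of 4 acinar markers, led by miR-148a-3p, was 317942 to 527770 CPM in HTG and 318992 to 437322 CPM in control libraries. All of these sums overlapped between groups (exact two-sided permutation p = 0.4 for islet, 0.5 for neuronal and 0.6 for acinar markers). The 5 duct markers summed to 30501 to 47332 CPM in HTG and 37260 to 40935 CPM in control libraries.

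Markers of infiltrating and supporting cells varied more within groups. The 7 leukocyte markers reached 6575 CPM in HTG 1, against 1287 and 1589 CPM in HTG 2 and 3, and 3627, 4776 and 2632 CPM in control 1, 2 and 3. The sum did not stand for each member. The myeloid miR-223-3p, 1 of the 7, was at 993, 769 and 948 CPM in HTG 1, 2 and 3. In control 1, 2 and 3 it was at 663, 3510 and 1695 CPM, so HTG 1 was not its highest library. The library highest in the leukocyte sum, HTG 1, was the HTG library lowest in miR-153-3p on the TMM scale and lowest in acinar markers. By library size alone HTG 2, not HTG 1, was the HTG library lowest in miR-153-3p. Control libraries had the opposite order on the TMM scale, with control 2 highest and control 3 lowest in both the leukocyte sum and miR-153-3p. The 4 erythroid markers summed to 461 to 1078 CPM in HTG and 413 to 958 CPM in control libraries. The 5 stellate, mesenchymal and smooth muscle markers summed to 19147 to 35693 CPM in HTG and 16648 to 60161 CPM in control libraries. No marker was at 0 in all libraries, and the part of these cell types in the level of miR-153-3p was not tested.

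Since the study concerns blood lipids, a list of 24 miRNAs tied to SREBP factors and lipid metabolism was examined too. Of 23 tested, 14 were above 0 and 9 below it, with a median log2 fold change of 0.016 (-0.022 with library size alone), and none passed in edgeR. At an unadjusted p under 0.05 there were 0, against 2.46% of all tested. Larger estimates than the 0.39 of miR-153-3p were found on both sides, all with wider errors. On the higher side these were miR-33-5p, encoded within the gene of the sterol factor Srebf2 (0.56 ± 0.62), miR-370-3p (0.52 ± 0.60) and miR-144-3p (0.44 ± 0.73; SE for each). On the lower side they were the myeloid miR-223-3p (-1.11 ± 0.52), with the smallest unadjusted p of the list in edgeR (0.0666), and the liver miRNA miR-122-5p (-0.80 ± 0.83; SE for each). These 5 were named after their values were seen. The 6 most abundant members were miR-148a-3p (0.22 ± 0.23), miR-26a-5p (-0.16 ± 0.13), miR-27b-3p (0.02 ± 0.16), miR-29a-3p (0.06 ± 0.14), miR-30c-5p (-0.07 ± 0.13) and miR-182-5p (0.04 ± 0.27; SE for each).

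The miRNAs whose pattern over the 6 libraries was most like that of miR-153-3p were found by Pearson correlation of log2 CPM among 298 miRNAs with a mean level of at least 10 CPM. The points share their libraries, depths and scaling factors, and the values are a description. The highest r was 0.996, for miR-802-3p, the rarer arm of a hairpin known from liver and pancreas and raised in obese mouse liver. It stood at 101, 116 and 134 CPM in HTG libraries 1, 2 and 3, and at 94.8, 101 and 90.0 CPM in control libraries 1, 2 and 3. Its libraries thus had the same order as those of miR-153-3p, with HTG 3 highest and control 3 lowest, and a log2 fold change of 0.30 ± 0.16 (SE; adjusted p = 0.996 in edgeR).

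The next were miR-582-3p (r = 0.889), miR-362-3p (r = 0.887), miR-96-5p (r = 0.836) and miR-802-5p (r = 0.825), with log2 fold changes of 0.18 ± 0.20, 0.19 ± 0.16, 0.20 ± 0.22 and 0.28 ± 0.20 (SE). In all 4 the groups overlapped. The abundant arm miR-802-5p was at 8909, 14790 and 12996 CPM in HTG libraries 1, 2 and 3, and at 10284, 10809 and 9082 CPM in control libraries 1, 2 and 3, so HTG 1 lay below every control. The group difference was left in each r, so its sign partly restates the direction of the fold changes. Among the endocrine and neuronal list, put together with earlier results known, r was above 0 for 12 of 16 miRNAs, with a median of 0.47. Over all 487 other tested miRNAs, whatever their level, it was above 0 for 193, or 39.6%, with a median of -0.17. It was 0.68 with miR-7a-5p, 0.38 with miR-375-3p and -0.88 with miR-9-3p.

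**Figure D5:**
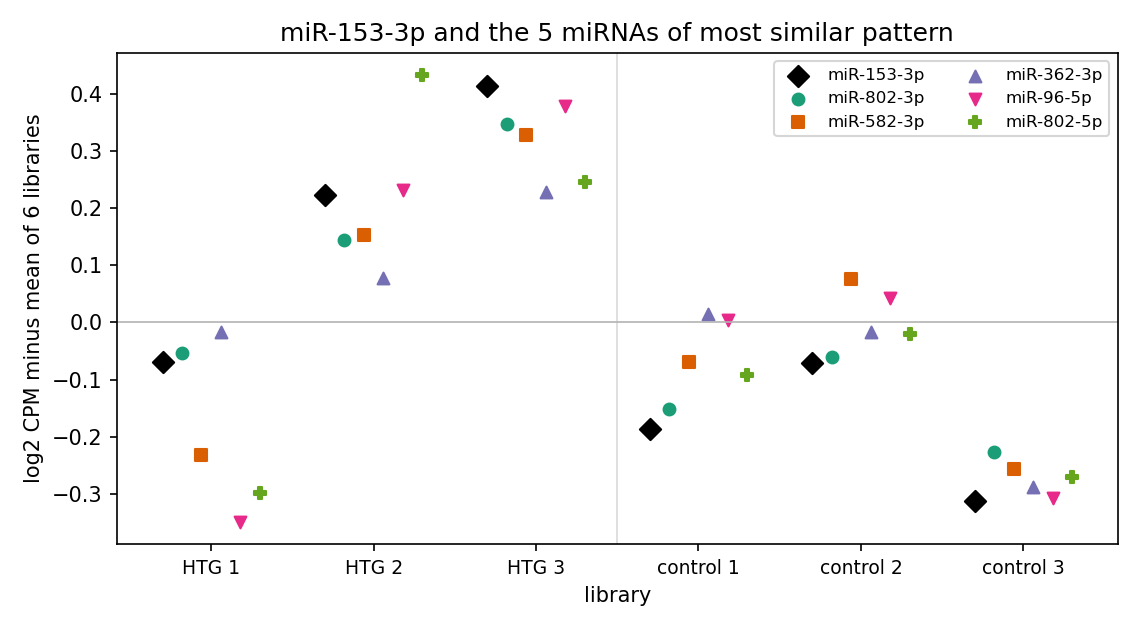
Log2 CPM of miR-153-3p and of the 5 miRNAs with the highest Pearson r, each minus its mean over the 6 libraries, in the HTG and control libraries. All 6 miRNAs are above 0 in HTG 2 and 3 and below 0 in control 3, while in HTG 1 they spread below 0.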

How the data were processed

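The 6 pancreas libraries were made from Trizol-extracted RNA with a NEXTflex small RNA kit (version v3), per the labels' protocols. The submitters' processing notes name Bowtie 1.1.1 and GRCm38. The sources used here do not give trimming, the miRNA annotation, mismatches or the treatment of multi-matching reads. Adapter ligation can favour some miRNAs, so levels of different miRNAs are not exact. The authors deposited whole-number counts per mature miRNA. The authors also deposited TPM, which equal the counts divided by 1 total per library, 1.70% to 1.95% below the count sum, with no length term. Total counts per library ran from 6514498 to 19773579.

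Counts were tested in R 4.3.3 with edgeR 4.0.16. Low counts were removed by filterByExpr (minimum count 10, minimum total 15). TMM scaling, a two-sided quasi-likelihood test and Benjamini-Hochberg adjustment followed. The code was first run on simulated data, where all changes put in were larger than that of miR-153-3p. That run does not show whether a change of its size would be called. CPM are counts scaled to library size and divided by the TMM factor. Log2 CPM used a prior count of 2. Intervals of counts are exact 95% Poisson intervals. Alternatives were limma 3.58.1 (voom on counts, and log2 of TPM + 1 or TPM + 0.1), DESeq2 1.42.0, other scalings, no filter, left-out libraries and a replicate block. The hairpin was folded with ViennaRNA 2.7.2.

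The titles number the libraries 1 to 3 in both groups. Deviations from the group means correlated at 0.47, 0.19 and 0.25 between same-numbered libraries. Between libraries 2 and 3 across the groups they correlated at 0.23 and 0.21. Beyond the libraries numbered 1 the data thus do not show that the numbers pair the libraries, and no label says so. The main test used no pairing. Same-number differences, sign-flip tests and the replicate block take the numbers as pairs only as an alternative. The members, lists and alternatives were chosen with earlier results of these data known. Named were miR-153-3p, the tested endocrine and neuronal list, the 6 most abundant lipid list members and the 5 miRNAs of highest r; other names were added after their values were seen.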

Additional observations from a re-analysis of the deposited data

How the results depend on the processing

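The log2 fold change of miR-153-3p was above 0 in each of 16 alternatives, between 0.27 and 0.60. It passed the threshold in none (smallest adjusted p 0.238, in edgeR without both libraries numbered 1). Fits with libraries left out could hardly change its sign, since each HTG library was above each control library on the TMM scale. Leaving out 1 library at a time gave 0.27 to 0.55, and the replicate block 0.38 (adjusted p = 0.989), with no call changed. The number of miRNAs called, 0 with all libraries, was 1 without a filter, 0 to 2 with 1 library left out (2 without control 1) and 4 without both libraries numbered 1 (miR-7a-5p, miR-7b-5p, miR-129-5p and miR-335-3p). Relative to miR-375-3p the log2 difference was 0.23 to 0.47 with 1 library left out, 0.34 with the replicate block and -0.51, the reversed direction, with miR-7a-5p as denominator, with or without the replicate block (the blocked one added after the data were seen). The median of the endocrine and neuronal list was 0.11 to 0.71 with 1 library left out, lowest without control 3 and highest without control 1, and 0.60 without both libraries numbered 1. That of the lipid list was -0.022 with library size alone, -0.0071 to 0.083 with 1 library left out and 0.10 without both libraries numbered 1. The causes were not tested. Alternatives for miR-153-5p and for the share of its arm could not be run, since it was not analysed here.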
